A study of Mus musculus with 96 samples.

Results

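The serine and one-carbon enzymes are 10 genes of the deposited count table, taken by name: Phgdh, Psat1, Psph, Shmt1, Shmt2, Mthfd1, Mthfd1l, Mthfd2, Mthfd2l and Aldh1l2. They are 10 of the 54150 rows of the table, and all 10 had enough counts to be tested in each of the 6 groups of samples that were fitted together. RNA was measured in 96 samples, in 35 conditions of 2 or 3 replicates, of C2C12 cells, a mouse line of proliferating myoblasts that fuse into myotubes in low serum. The labels number the replicates but do not say whether they were separate cultures, so the p-values below measure the spread between these samples, which may be technical.

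All myoblasts carried a doxycycline-inducible transgene, stably introduced with a lentivirus, which was switched on by 300 ng/ml doxycycline added a day ahead, and grew in 10% dialyzed fetal bovine serum. The transgene was luciferase (the control), LbNOX (a bacterial enzyme that oxidizes NADH with oxygen), mitoLbNOX (the same enzyme sent to the mitochondrial matrix) or NDI1 (a yeast NADH dehydrogenase that stands in for complex I and that piericidin does not inhibit). They received DMSO as vehicle, 0.5 µM piericidin (a complex I inhibitor), 0.5 µM antimycin (complex III) or 1 µM oligomycin (ATP synthase) for 10 h, or 20 µg/ml chloramphenicol, which blocks mitochondrial translation, for 48 h beside their own 48 h DMSO samples, from fewer cells seeded and, by the study's account, in the presence of uridine, which the medium of the other treatments lacked. Mitochondrial LbNOX cells received no oligomycin and no chloramphenicol, and NDI1 cells received only DMSO or piericidin. Untransduced C2C12 cells were grown to confluence in 20% serum, moved to 2% dialyzed horse serum, and treated after 24 h (day 1 cells, described in the labels as largely post-mitotic) or after 4 days (myotubes). Myotubes also received BAM15, an uncoupler that carries protons across the inner membrane, at 0.5 µM, alone or with oligomycin, or were held in 5% oxygen from the night before treatment, with DMSO or oligomycin, or received piericidin together with oligomycin. Day 1 cells received DMSO, piericidin or oligomycin but no antimycin. Further myotubes were transduced with adenovirus for GFP, or for LbNOX together with GFP, after 48 h in low serum, and received DMSO, piericidin or oligomycin. Myoblast and myotube conditions therefore differ in transgene, doxycycline and serum as well as in cell state, and these cannot be told apart in comparisons between states. By plate well, all DMSO-treated control myoblasts and all day 1 cells were in outer wells. All antimycin-treated control myoblasts and all DMSO-treated untransduced myotubes were in inner wells. NDI1 cells were in outer wells with DMSO and inner wells with piericidin. Where these groups are compared across outer and inner wells, the well cannot be told apart from treatment or state.

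The counts summed to between 6458295 and 15366745 in a sample (median 10336588.5). Each transgene was counted only in cells labelled as carrying it: luciferase at 78.8 to 271 CPM, NDI1 at 31.6 to 38.4 CPM, and LbNOX at 225 to 1059 CPM in LbNOX myoblasts, 711 to 1960 CPM in mitoLbNOX myoblasts and 5686 to 11854 CPM in LbNOX myotubes, where 1 table row serves both forms. CPM here are counts scaled to a common library total (counts-per-million) with TMM (trimmed mean of M values) factors over all 96 samples. The summed level of 8 differentiated muscle markers, among them Acta1, Myog, Ckm and Myh3, was 11.2 to 93.05 CPM in the 45 myoblast samples, 11143 to 11868 CPM in the 9 day 1 samples and 10725 to 14631 CPM in the 42 myotube samples. The summed level of 5 proliferation markers (Mki67, Top2a, Ccnb1, Cdk1 and Ccna2) was 727 to 1512 CPM, 183 to 261 CPM and 23.2 to 169 CPM in the same order, so they were still detected in the later states. Markers of blood, endothelial, epithelial, fat and glial cells summed to less than 5 CPM in every sample.

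As background, cells make serine from the glycolytic intermediate 3-phosphoglycerate in 3 steps, catalysed in order by PHGDH, PSAT1 and PSPH. Serine hydroxymethyltransferase then moves a carbon from serine to tetrahydrofolate, leaving glycine, in the cytosol (SHMT1) and in the mitochondrion (SHMT2). In the mitochondrion MTHFD2 or MTHFD2L oxidizes the folate-bound carbon to the formyl level, and MTHFD1L releases it as formate, which leaves for the cytosol, or ALDH1L2 oxidizes it to carbon dioxide with formation of NADPH. In the cytosol MTHFD1, a single protein with 3 activities, takes up formate again for purine, thymidylate and methyl group synthesis. Several of these genes are known targets of ATF4, the transcription factor of the integrated stress response (ISR), in which cells under amino acid or organelle stress slow translation and raise genes of amino acid supply. The study asked which mitochondrial defects start that response in dividing and in differentiated muscle cells.

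The 10 genes lie on 7 chromosomes of GRCm38, the build the authors quantified against. Shmt2 (chr10:127517123-127522444, minus strand), Aldh1l2 (chr10:83487450-83534140, minus strand) and Mthfd1l (chr10:3973118-4167081, plus strand) are far apart on chromosome 10, Psph (chr5:129765558-129787449, minus strand) and Mthfd2l (chr5:90931117-91021368, plus strand) lie on chromosome 5, and Phgdh (chr3:98313170-98339990, minus strand), Mthfd2 (chr6:83305691-83325908, minus strand), Shmt1 (chr11:60788104-60811718, minus strand), Mthfd1 (chr12:76255298-76319803, plus strand) and Psat1 (chr19:15904678-15947337, minus strand) are alone on theirs. The counting did not use strand, and exons of 5 members overlap exons of a gene on the other strand. For Shmt2 and Mthfd1 the overlapping genes (Ndufa4l2 and Gm47525) stayed below 1 CPM in every sample. For Psph (Cct6a, 275 to 1005 CPM), Aldh1l2 (D10Wsu102e, 43.5 to 118 CPM) and Shmt1 (Smcr8, 22.0 to 51.5 CPM) reads from the shared stretch could belong to either gene. The processed pseudogene Phgdh-ps1, the only other row with a member's name in it, never held more than 2 counts.

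Promoter sequences are shown for the gene pairs that share a reaction and of which 1 was called with the inhibitors in control myoblasts and the other was not, Shmt2 beside Shmt1 and Mthfd2 beside Mthfd2l. RefSeq windows (GRCm38.p6) of 300 bases, from 250 before the start site to 50 after it, were found for 9 of the 10 genes, Psat1 with 2 windows. No window was found for Aldh1l2. The Mthfd2 and Psat1 windows lie well inside the gene spans given above, at start sites other than the outermost annotated one. Capitals mark the CCAAT box, searched as CCAAT on both strands (so also as ATTGG), and the sequences are written 5′ to 3′ on the strand of the gene.
Shmt2 chr10:127522395-127522694, minus strand: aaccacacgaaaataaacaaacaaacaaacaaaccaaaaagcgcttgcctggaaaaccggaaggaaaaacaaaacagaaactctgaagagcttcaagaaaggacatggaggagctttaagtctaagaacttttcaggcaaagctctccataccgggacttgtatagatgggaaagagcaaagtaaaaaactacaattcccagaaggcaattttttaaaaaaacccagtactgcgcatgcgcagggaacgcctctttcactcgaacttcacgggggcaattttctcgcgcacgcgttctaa
Shmt1 chr11:60811216-60811515, minus strand: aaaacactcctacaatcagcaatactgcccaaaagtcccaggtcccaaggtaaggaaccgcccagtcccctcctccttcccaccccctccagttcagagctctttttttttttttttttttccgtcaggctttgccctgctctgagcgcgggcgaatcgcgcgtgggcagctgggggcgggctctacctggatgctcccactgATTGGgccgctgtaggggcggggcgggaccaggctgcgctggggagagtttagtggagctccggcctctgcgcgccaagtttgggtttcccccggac
Mthfd2 chr6:83317555-83317854, minus strand: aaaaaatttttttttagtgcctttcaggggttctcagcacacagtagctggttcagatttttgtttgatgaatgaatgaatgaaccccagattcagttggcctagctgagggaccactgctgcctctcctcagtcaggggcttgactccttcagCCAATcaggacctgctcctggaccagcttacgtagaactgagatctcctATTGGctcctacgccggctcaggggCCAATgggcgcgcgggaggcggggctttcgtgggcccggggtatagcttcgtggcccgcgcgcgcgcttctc
Mthfd2l chr5:90930946-90931245, plus strand: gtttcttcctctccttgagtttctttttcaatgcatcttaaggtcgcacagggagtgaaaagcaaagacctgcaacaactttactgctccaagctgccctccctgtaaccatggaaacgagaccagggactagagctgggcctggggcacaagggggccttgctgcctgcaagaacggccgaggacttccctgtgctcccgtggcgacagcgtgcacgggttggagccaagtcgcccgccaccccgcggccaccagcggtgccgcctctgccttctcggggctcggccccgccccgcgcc
The Mthfd2 window holds 3 CCAAT boxes, which begin 96, 47 and 22 bases before the start site, the Shmt1 window holds 1, which begins 47 bases before it, and the Shmt2 and Mthfd2l windows hold none. Windows of Phgdh, Psat1, Psph and Mthfd1 also hold the box, which makes 6 of the 9 genes, and 37.4% of all 32851 windows hold it. The core of the C/EBP-ATF response element, searched as TGATGNAA on both strands, is in 3.97% of all windows and in none of the 10 member windows, and the E-box CACGTG is in 7.15% of all windows and in none of them. These matches describe letters in a short window and were not tested against any response.

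In control (luciferase) myoblasts, 8 of the 10 genes rose under each of the 3 inhibitors and none fell. The strongest rise was that of Aldh1l2, and the 3 serine synthesis genes, Shmt2, Mthfd2 and Mthfd1l rose at least 1.65-fold under each inhibitor. Mthfd1 rose by little, and its call with oligomycin was lost without replicate 2, without replicate 3 and without a count filter. Shmt1 and Mthfd2l did not pass the test. Among all 11981 genes tested, 30.9% rose with piericidin, 32.1% with antimycin and 24.5% with oligomycin, so a rise in itself was common in these cells. The median log2 fold change of the 10 genes was 1.30, 0.83 and 1.14 in the same order, where the median over all genes lay within 0.02 of 0. The 3 comparisons share their DMSO samples.

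**Figure D1:**
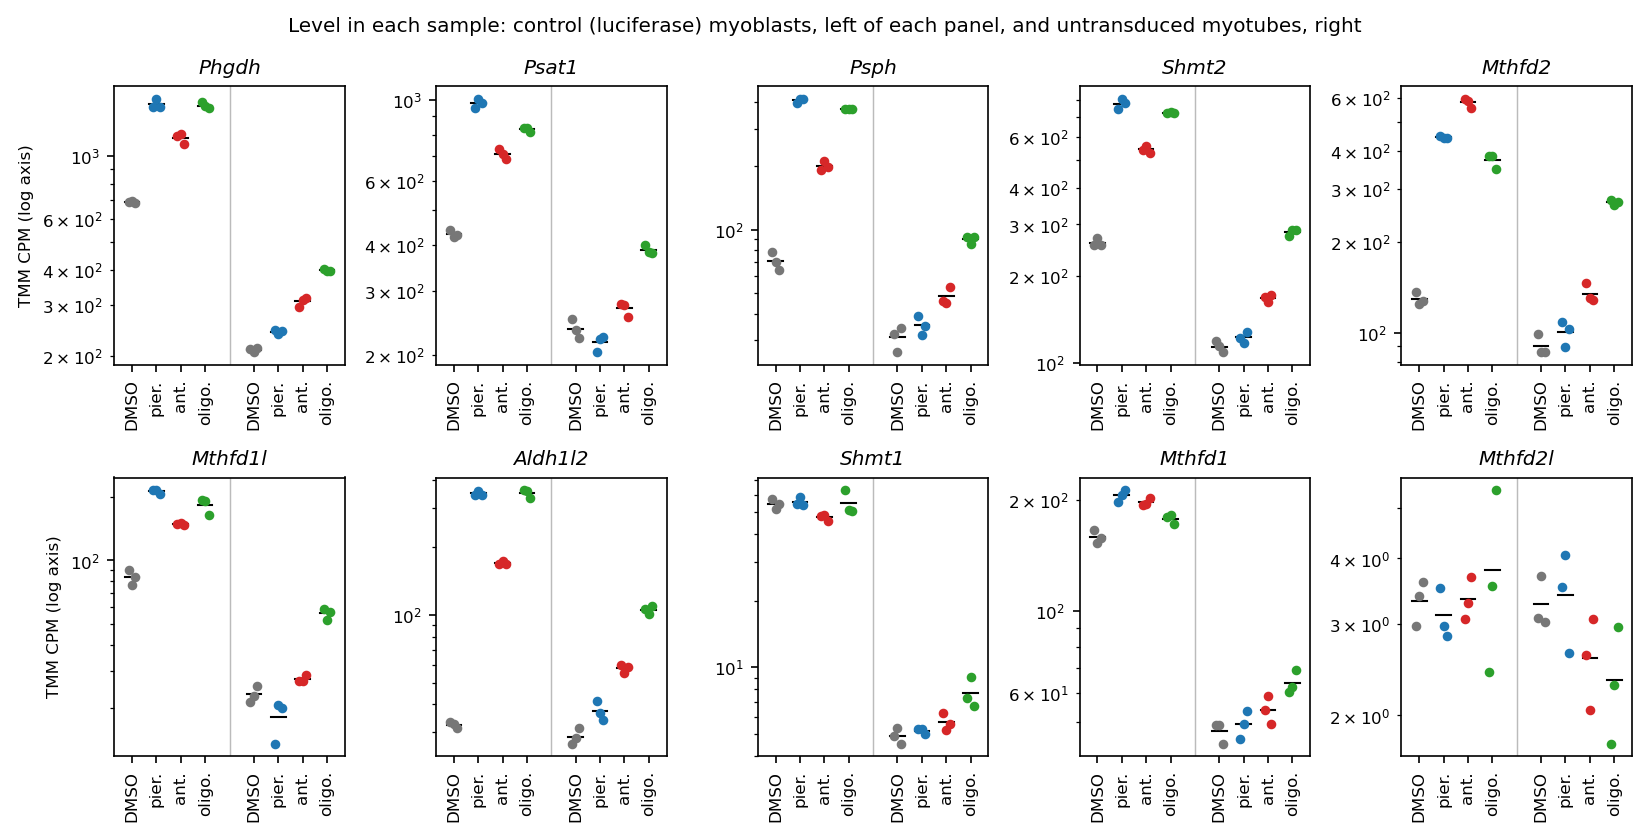
TMM CPM (log axis, different for each gene) of the 10 genes in each sample of control myoblasts (left of each panel) and untransduced myotubes (right) with DMSO, piericidin, antimycin or oligomycin. Points are samples (n = 3 per condition) and bars their means. In myoblasts all 9 inhibitor-treated samples of Aldh1l2, Psph, Phgdh, Psat1, Shmt2, Mthfd2 and Mthfd1l lie above the DMSO samples, and in myotubes the oligomycin samples of the same genes stand highest.

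The serine synthesis genes differed in size of response. Psph, the phosphatase of the last step, was at 78.2, 70.2 and 64.4 CPM in the 3 DMSO samples, 399, 417 and 415 with piericidin, 192, 212 and 197 with antimycin and 372, 373 and 373 with oligomycin. No treated sample overlapped a DMSO sample, and antimycin stood apart below the other inhibitors. Its log2 fold changes (± SE) were 2.57 ± 0.05, 1.54 ± 0.05 and 2.41 ± 0.05 (edgeR's quasi-likelihood test with Benjamini-Hochberg adjustment, adjusted p = 6.61e-27, 1.26e-21 and 4.92e-26). Phgdh, the first enzyme of the pathway and the most abundant member in CPM, went from 689.6 ± 6.45 CPM (SD, n = 3) to 1516 ± 60.1, 1156 ± 46.9 and 1499.7 ± 35.1, which are 2.20-, 1.68- and 2.17-fold. Psat1, the aminotransferase between them, went from 429 ± 10.2 CPM to 979 ± 27.8, 709.7 ± 23.2 and 829 ± 13.6 (2.28-, 1.65- and 1.93-fold). Psph thus had the largest relative rise of the 3 under every inhibitor.

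The hydroxymethyltransferases parted by compartment. Mitochondrial Shmt2 was at 256, 269 and 255 CPM with DMSO, 745, 812 and 786 with piericidin, 542, 560.0 and 527 with antimycin and 722, 733 and 723 with oligomycin, with no overlap between treated and DMSO samples. Cytosolic Shmt1 was at 57.2, 52.0 and 54.5 CPM with DMSO, 54.4, 58.7 and 54.1 with piericidin, 48.3, 48.5 and 45.7 with antimycin and 62.9, 51.4 and 50.5 with oligomycin, and its log2 fold changes of 0.07 ± 0.09, -0.16 ± 0.09 and 0.02 ± 0.09 did not pass the test (edgeR, adjusted p = 0.552, 0.145 and 0.853). The piericidin and oligomycin samples of Shmt1 overlapped the DMSO samples, and the antimycin samples lay just below them. Without replicate 2 and with only the groups compared, Shmt1 was called lower with antimycin (-0.26 and -0.18, edgeR, adjusted p = 0.0450 in both).

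Of the mitochondrial folate genes, Aldh1l2 moved furthest. It was at 33.4, 32.6 and 31.4 CPM with DMSO, 344, 357 and 342 with piericidin, 168, 175 and 169 with antimycin and 359.6, 356 and 332 with oligomycin. These are 10.7-, 5.25- and 10.8-fold (edgeR log2 fold changes 3.45 ± 0.07, 2.44 ± 0.06 and 3.44 ± 0.07, adjusted p at or below 7.07e-24). Mthfd2, the dehydrogenase and cyclohydrolase of the matrix, had another order: 136, 125 and 128 CPM with DMSO, 449, 441 and 441 with piericidin, 595, 585 and 555 with antimycin and 384, 384 and 347 with oligomycin, so that antimycin gave its highest samples. Mthfd1l, the formate-releasing enzyme, rose 2.54-, 1.79- and 2.19-fold. Mthfd2l, the second matrix enzyme for the step of Mthfd2, was close to the detection limit, with 13 to 57 counts per sample over the 96 samples, and its log2 fold changes ran from -0.06 to 0.19. It was called in none of the 49 comparisons (edgeR), though 2 alternatives called it, the LbNOX difference in piericidin response with only the groups compared (0.90, adjusted p = 0.0278) and oligomycin with piericidin against oligomycin alone in myotubes without replicate 3 (0.96, adjusted p = 0.0444). At that depth, changes of the size of those of Mthfd1 may have been missed, which was not tested. Cytosolic Mthfd1 rose 1.29-, 1.24- and 1.12-fold (edgeR, adjusted p = 4.89e-06, 3.44e-05 and 0.0284).

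Compared directly, antimycin gave lower levels than piericidin for 6 members (Phgdh, Psat1, Psph, Shmt2, Mthfd1l and Aldh1l2; 17.9% of all genes were lower) and a higher level for Mthfd2 alone (19.3% of all genes were higher). The difference was -1.02 ± 0.06 for Aldh1l2 and -1.03 ± 0.05 for Psph on the log2 scale, and 0.39 ± 0.04 for Mthfd2 (edgeR, adjusted p = 2.57e-08). Against oligomycin, antimycin gave the same 6 lower (23.9% of all genes) and Mthfd2 (0.67 ± 0.04) and Mthfd1 (0.18 ± 0.07) higher (26.1% of all genes). The Mthfd1 call was lost without any 1 of the replicates and with DESeq2. Shmt1 was called lower than with oligomycin without replicate 2 (-0.28) and lower than with piericidin with only the groups compared (-0.24). Piericidin against oligomycin gave 6 members higher by 0.13 to 0.28 on the log2 scale (20% of all genes), and Aldh1l2 (0.01 ± 0.06) and Phgdh (0.04 ± 0.03) did not pass the test. Without replicate 2 or without replicate 3, only 2 of those 6 were called. Over the same samples Atf4 was 0.39 ± 0.03 higher with antimycin than with piericidin, and the proliferation markers summed to 1387 to 1404 CPM with DMSO, 1119 to 1185 with piericidin, 809 to 854 with antimycin and 1096 to 1143 with oligomycin. The differentiated muscle markers summed to 18.3 to 23.8 CPM, 27.2 to 33.4, 83.8 to 93.05 and 22.6 to 31.7 in the same order, and 4 markers of the myoblast lineage (Myod1, Myf5, Des and Cdh15) to 624 to 643, 599.8 to 612, 812 to 865 and 526 to 552, so that antimycin samples stood apart in all 3 lists. With DMSO, the lineage sum averaged 631 CPM in control myoblasts and 4332 in untransduced myotubes (Des 399 and 3893), so it does not mark myoblasts alone. Of the differentiated markers, Acta1 was at 16.4 CPM in DMSO-treated control myoblasts, and Myog, Ckm and Myh3 at 0.43, 0.22 and 0.42. The part of these 3 lists in the differences was not tested.

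Between genes, levels were compared per kilobase of the longest coding transcript (GENCODE M21, an annotation of the same build, 1733 to 6027 bases). In DMSO-treated control myoblasts the order was Phgdh (364 ± 3.41 CPM per kilobase, SD, n = 3), Psat1 (164 ± 3.91), Shmt2 (113 ± 3.40), Mthfd2 (62.2 ± 2.92), Mthfd1 (48.9 ± 2.06), Psph (40.9 ± 3.98), Mthfd1l (22.6 ± 1.84), Shmt1 (19.1 ± 0.910), Aldh1l2 (5.39 ± 0.171) and Mthfd2l (1.54 ± 0.152). The ranges of neighbours in that order did not overlap. With oligomycin, Aldh1l2 reached 58.0 ± 2.47 CPM per kilobase, close to Mthfd1 (54.8 ± 1.49) and Mthfd1l (49.5 ± 4.45), and Psph at 215 ± 0.345 passed Mthfd2 at 178 ± 10.2. Shmt2 (317 ± 2.52) and Psat1 (317 ± 5.20) could then not be ordered.

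**Figure D2:**
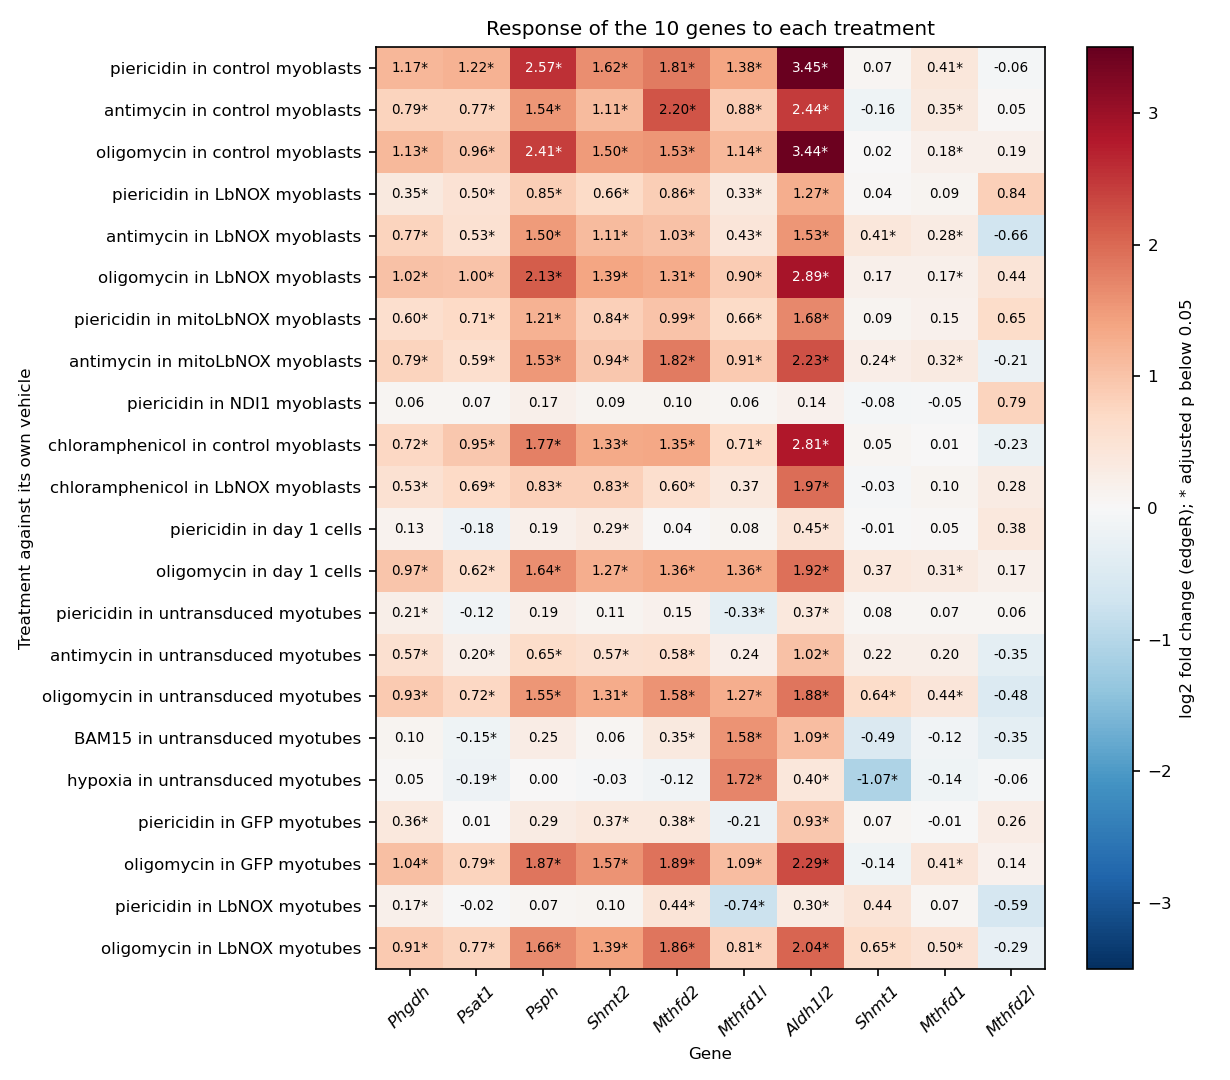
Log2 fold changes (edgeR) of the 10 genes in 22 treatments, each against its own vehicle. Red is higher and blue lower than the vehicle, and an asterisk marks an adjusted p below 0.05. Aldh1l2 is called in 21 of the 22 rows and Mthfd2l in none, and the BAM15 and hypoxia rows are red at Mthfd1l.

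Before any inhibitor, the transgenes themselves came with differences in DMSO-treated myoblasts. NDI1 cells had 6 members higher than luciferase cells (2.74% of all genes were higher). Aldh1l2 was at 70.2 and 77.8 CPM in the 2 NDI1 samples, against 33.4, 32.6 and 31.4 in the 3 luciferase samples, and Psph at 103 and 115 against 78.2, 70.2 and 64.4, with no overlap (edgeR log2 difference 1.18 ± 0.07 and 0.61 ± 0.06, adjusted p = 3.66e-13 and 3.13e-09). Shmt2, Mthfd2, Phgdh and Psat1 were higher by 0.17 to 0.34 on the log2 scale. Without replicate 2, 3 of these 6 were called, but the NDI1 arm is then 1 sample, assumed to vary like the other groups. In mitoLbNOX cells Aldh1l2 (0.56), Psph (0.36) and Shmt2 (0.21) were higher (0.985% of all genes), of which Shmt2 was lost without replicate 1 and without replicate 2 and both Shmt2 and Psph with only the groups compared, and in LbNOX cells Aldh1l2 (0.24 ± 0.07, 1.3% of all genes) was, a call that was lost without any 1 of the replicates.

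With piericidin, each of the 8 members that rose in control cells responded less in LbNOX cells. In LbNOX cells 7 members rose (5.01% of all genes; Mthfd1l was lost without replicate 2 and without replicate 3), with Aldh1l2 at 41.3, 36.1 and 37.9 CPM with DMSO and 84.7, 95.8 and 92.97 with piericidin, which is 2.37-fold where control cells rose 10.7-fold. The test of the difference between the responses (LbNOX minus luciferase) called 8 members lower, 22% of all genes being lower. It gave -2.18 ± 0.09 for Aldh1l2, -1.71 ± 0.07 for Psph, -1.05 ± 0.09 for Mthfd1l and -0.96 ± 0.06 for Shmt2 on the log2 scale, and the call of Mthfd1 was lost without replicate 2. In mitoLbNOX cells 7 members rose (6.37% of all genes) and the same test called 8 lower (21.4% of all genes), by -1.77 for Aldh1l2 and -1.36 for Psph, where Mthfd1 was lost without any 1 of the replicates and without a count filter. The proliferation markers summed to 1128 to 1232 CPM with piericidin in LbNOX cells, against 1369 to 1394 with DMSO. In mitoLbNOX cells they summed to 1099 to 1153, against 1276 to 1382. The differentiated muscle markers were higher in both, at 31.2 to 40.4 and 29.5 to 36.0 CPM, against 16.5 to 22.9 and 15.6 to 20.4. The part of these markers was not tested. In NDI1 cells, with 2 samples in each arm, no member was called with piericidin (edgeR; 0.00835% of all genes were higher and 0% lower). At an unadjusted p under 0.05 there was 1 member, and DESeq2 called 0. The difference from luciferase cells was called lower for 8 members (21.5% of all genes), -3.31 ± 0.10 for Aldh1l2, and the Mthfd1 call was lost without replicate 2 (-0.37), which leaves 1 NDI1 sample in each arm. The values of Aldh1l2 in NDI1 cells, 70.2 and 77.8 CPM with DMSO and 84.4 and 75.4 with piericidin, overlapped, and both lay above those of DMSO-treated luciferase cells.

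**Figure D3:**
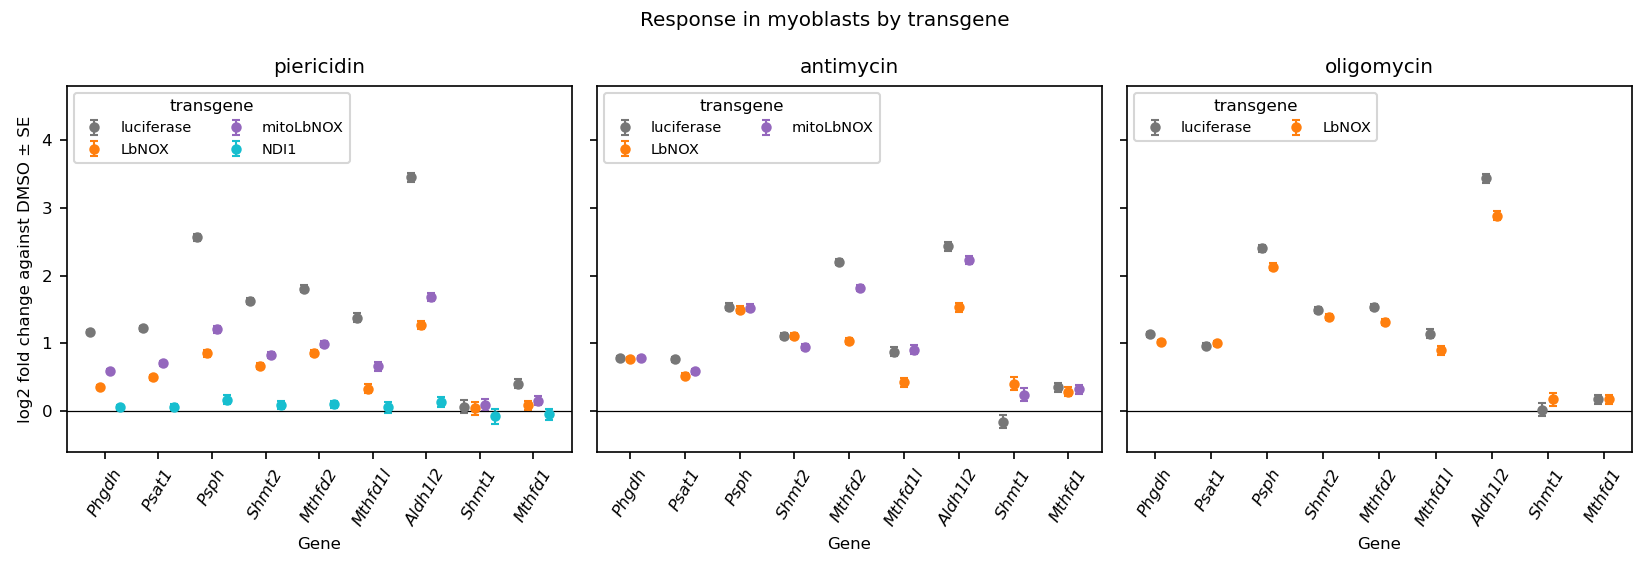
Log2 fold change against DMSO ± SE (edgeR) of 9 genes with piericidin, antimycin and oligomycin in myoblasts with luciferase, LbNOX, mitoLbNOX or NDI1 (the last with piericidin only). The piericidin responses of Aldh1l2, Psph, Shmt2, Mthfd2, Mthfd1l, Psat1 and Phgdh step down from luciferase to mitoLbNOX, LbNOX and NDI1, while the antimycin values of Phgdh, Psph and Shmt2 lie close together for luciferase and LbNOX.

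With antimycin, the members differed in how LbNOX cells compared with control cells. In LbNOX cells 9 rose (23.3% of all genes). Shmt2 went from 262, 279 and 255 CPM to 569.6, 558 and 547 with antimycin, and Psph from 78.4, 78.6 and 75.7 to 217, 219 and 205, values that lay within or near those of antimycin-treated luciferase cells. The difference between the responses was 0.00 ± 0.06 for Shmt2, -0.04 ± 0.07 for Psph and -0.02 ± 0.04 for Phgdh, none of them called (edgeR, adjusted p = 0.982, 0.628 and 0.762). Mthfd2, in contrast, was at 241, 242 and 250.2 CPM in antimycin-treated LbNOX cells against 595, 585 and 555 in luciferase cells, a difference in response of -1.17 ± 0.06 (edgeR, adjusted p = 1.37e-15). Aldh1l2 (-0.90 ± 0.09), Mthfd1l (-0.45 ± 0.09) and Psat1 (-0.24 ± 0.05) were also called lower, which makes 4 members where 26.8% of all genes were lower (the Mthfd1l call was lost without replicate 2). Shmt1 was called higher (0.56 ± 0.13, 24.7% of all genes): it was at 46.2, 56.7 and 47.5 CPM with DMSO and 68.7, 66.1 and 59.8 with antimycin in LbNOX cells, where the groups did not overlap. The proliferation markers summed to 1369 to 1394 CPM with DMSO and 727 to 768 with antimycin in these cells, and the differentiated muscle markers to 16.5 to 22.9 and 34.0 to 39.4, and their part was not tested.

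Among 5 reference genes of the ISR, the antimycin response in LbNOX cells was lower than in luciferase cells for all 5, by -3.29 for Atf4 and -7.64 for Atf3 on the log2 scale. Atf4 itself fell with antimycin in LbNOX cells (log2 fold change -0.51 ± 0.03), where it had risen by 2.78 ± 0.03 in luciferase cells. Asns, which makes asparagine, rose by 1.31 ± 0.05 and 1.82 ± 0.05. In LbNOX cells with antimycin 3 of the 5 rose (Ddit3, Asns and Trib3), Atf4 alone fell and Atf3 did not pass the test, with a median log2 fold change of 1.17. With piericidin all 5 rose, Atf4 by 0.55 ± 0.03, with a median of 1.02. The RNA level of Atf4 does not report on its protein, which these data do not measure.

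In mitoLbNOX cells 9 members rose with antimycin (24.8% of all genes), of which Shmt1 (0.24 ± 0.09) was lost without any 1 of the replicates and without a count filter. Between the responses of mitoLbNOX and luciferase cells, Mthfd2 (-0.38), Psat1 (-0.18) and Shmt2 (-0.16) were lower (16.3% of all genes) and Shmt1 was higher (0.40, 15.4% of all genes). Leaving out a replicate left 1 to 3 of these 4 calls, with 2 called without replicate 1 and 1 without replicate 2, and with plate position Aldh1l2 was called lower too (-0.26). In mitoLbNOX cells the proliferation markers summed to 1276 to 1382 CPM with DMSO and 828 to 869 with antimycin, and the differentiated muscle markers to 15.6 to 20.4 and 60.6 to 65.2, and their part was not tested. With oligomycin 8 members rose in LbNOX cells (17.5% of all genes; Mthfd1 was lost without replicate 1, without replicate 3, without a count filter and with only the groups compared, and Shmt1 was called higher without replicate 2, at 0.36, and with plate position), and 3 rose less than in luciferase cells (Aldh1l2 by -0.55 ± 0.09, Psph by -0.28 ± 0.07 and Mthfd2 by -0.22 ± 0.06, 4.18% of all genes). One of these 3 was called without replicate 2 or without replicate 3, and 2 without replicate 1.

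Chloramphenicol for 48 h raised 7 members in luciferase myoblasts, where 4.83% of all 11704 genes tested were higher, with 2 samples per condition. Aldh1l2 was at 24.8 and 27.1 CPM with DMSO and 187 and 165 with chloramphenicol (6.77-fold, edgeR log2 fold change 2.81 ± 0.10, adjusted p = 8.69e-07), Psph at 56.7 and 56.5 and 198 and 174, and Shmt2 at 207 and 214 and 527 and 498. Mthfd2 (1.35), Psat1 (0.95), Phgdh (0.72) and Mthfd1l (0.71) were the others, and Mthfd1 had a log2 fold change of 0.01 ± 0.07. In LbNOX cells 6 rose (0.675% of all genes), and Mthfd1l at 0.37 ± 0.11 did not pass the test, but did so without a count filter (edgeR, adjusted p = 0.00567). The response was lower in LbNOX than in luciferase cells for 4 members, Psph (-0.94 ± 0.11), Aldh1l2 (-0.84 ± 0.13), Mthfd2 (-0.76 ± 0.09) and Shmt2 (-0.50 ± 0.06), where 0.453% of all genes were lower. With a replicate block the calls of Shmt2 and Aldh1l2 were lost (edgeR, adjusted p = 0.0555 and 0.0931). Treatment time, seeding and uridine differed from the other conditions and the vehicle samples were its own, so its values stand beside theirs without a test.

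The members also differed between untreated states, read in DMSO samples of control myoblasts, day 1 cells and untransduced myotubes. From myoblasts to day 1 cells 6 members were lower (32.3% of all 12766 genes tested were lower), from day 1 cells to myotubes 7 (16%), and from myoblasts to myotubes 8 (33.7%), and no member was called higher in these fits. Under single alternatives the small values of Psat1, Aldh1l2 and Mthfd2 in day 1 cells against myoblasts were called higher, Psat1 under 4 of them (at 0.13 with only these groups compared). Shmt1 fell furthest, from 57.2, 52.0 and 54.5 CPM in myoblasts to 9.69, 9.82 and 8.69 in day 1 cells and 4.93, 5.32 and 4.53 in myotubes (myotubes against myoblasts, edgeR log2 difference -3.42 ± 0.12, adjusted p = 8.64e-21). Mthfd1 fell from 166, 153 and 157 CPM to 51.2, 51.8 and 50.7 in day 1 cells and was at 49.3, 49.1 and 43.8 in myotubes, so its decrease lay in the first step. Mthfd1l had the same shape (-1.61, then -0.18, the second not called). Psat1 had the reverse one, with 0.08 in the first step, not called, and -0.90 in the second. Phgdh was lower in both (-0.88 and -0.80). Aldh1l2 was at 33.8, 35.3 and 35.9 CPM in day 1 cells and 26.7, 28.2 and 31.3 in myotubes, a small decrease (-0.25 ± 0.07), and was not called between myoblasts and myotubes (-0.13 ± 0.07; called lower without replicate 3, at -0.22). All 5 proliferation markers were lower in myotubes than in myoblasts as well, by a median of 3.15 on the log2 scale. In bulk samples, fewer cells of a type and less RNA per cell cannot be told apart.

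**Figure D4:**
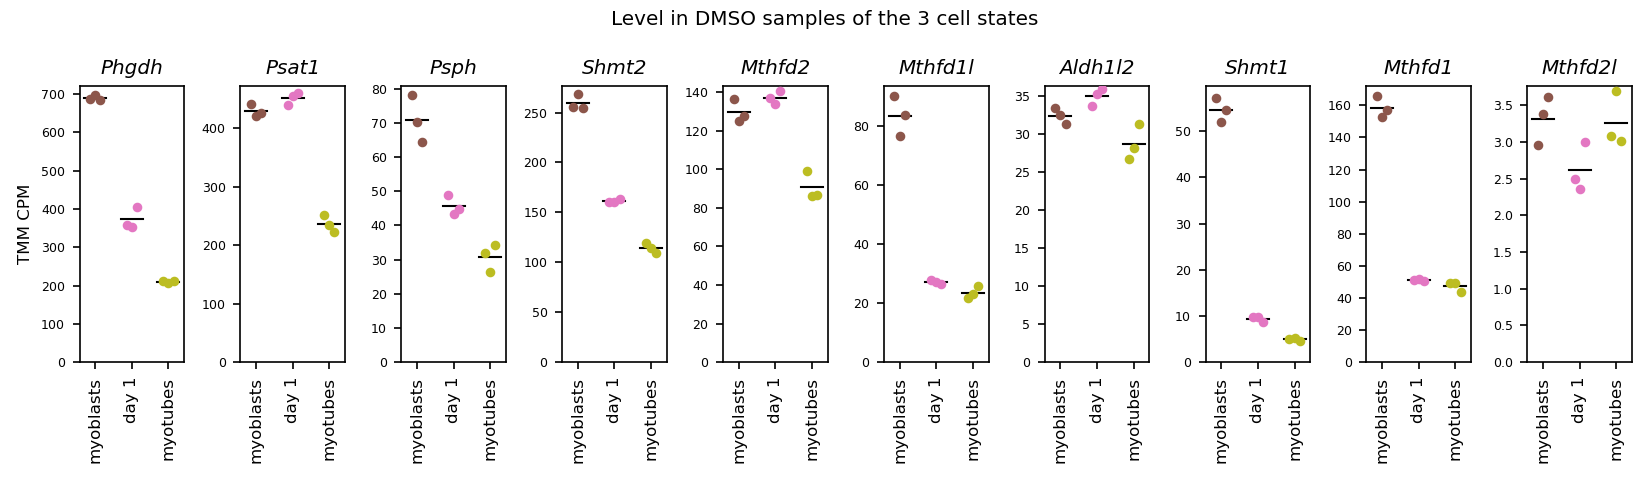
TMM CPM (linear axis from 0, different for each gene) of the 10 genes in DMSO samples of control myoblasts, day 1 cells and untransduced myotubes; points are samples (n = 3 each) and bars their means. Shmt1, Mthfd1 and Mthfd1l drop from myoblasts to day 1 cells, and Psat1 and Mthfd2 drop only from day 1 cells to myotubes.

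In myotubes oligomycin raised 9 members, Shmt1 included, where 16.9% of all 12491 genes tested rose. Aldh1l2 went from 26.7, 28.2 and 31.3 CPM to 106, 101 and 109, Psph from 32.0, 26.2 and 34.3 to 91.9, 85.5 and 92.4, and Mthfd2 from 99.0, 86.1 and 86.5 to 275, 264 and 271. No oligomycin sample of these genes overlapped a DMSO sample, and the folds were 3.67, 2.91 and 2.98. Shmt1 was at 7.25, 9.06 and 6.67 CPM against 4.93, 5.32 and 4.53 (edgeR log2 fold change 0.64 ± 0.20, adjusted p = 0.0131), a call that was lost without any 1 of the replicates (adjusted p = 0.0531 to 0.108), without a count filter and with plate position, while the proliferation markers summed to 138 to 156 CPM against 135 to 169 with DMSO. The differentiated muscle markers summed to 14202 to 14462 CPM with oligomycin against 11649 to 12020 with DMSO. For the myoblast lineage markers it was 3474 to 3758 against 4233 to 4392, and the part of these lists was not tested. Antimycin raised 6 members (6.64% of all genes), Aldh1l2 to 59.6, 55.4 and 58.4 CPM (2.01-fold) and Psph, Mthfd2, Shmt2, Phgdh and Psat1 by 0.20 to 0.65 on the log2 scale (Psat1 was lost without replicate 2). Piericidin raised Aldh1l2 (0.37 ± 0.09) and Phgdh (0.21 ± 0.04) only (4.15% of all genes) and lowered Mthfd1l (-0.33 ± 0.10, 4.84% of all genes). Without replicate 1 or without replicate 2, no member was called with piericidin, and Mthfd1l was lost also without replicate 3, with a replicate block, with plate position and with only the groups compared.

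In day 1 cells oligomycin raised 8 members (10.6% of all 11827 genes tested), of which Mthfd1 was lost without replicate 1 and without replicate 2. Aldh1l2 rose by 1.92 ± 0.07, Psph by 1.64 ± 0.07, and Mthfd1l and Mthfd2 each by 1.36 on the log2 scale. Piericidin raised Aldh1l2 (0.45 ± 0.07) and Shmt2 (0.29 ± 0.04), where 1.39% of all genes rose, and without replicate 1 or without replicate 2 no member was called, and without replicate 3 it was 1. Psat1 was called lower with piericidin without a count filter (-0.20) and with the DESeq2 Wald test (-0.18). The differences between states were tested directly in 1 fit. The piericidin response was lower than in myoblasts for 8 members both in myotubes (21.3% of all genes) and in day 1 cells (21.2%), for Aldh1l2 by -3.03 and -2.95 and for Psph by -2.33 and -2.33. In myotubes the Mthfd1 call was lost without replicate 1, without replicate 2 and without a count filter, and in day 1 cells it was lost without a count filter. The antimycin response was lower in myotubes for 7 members (22.5% of all genes), most for Mthfd2 (-1.57 ± 0.08), and higher for Shmt1 (0.42 ± 0.16, 25.4% of all genes). The Shmt1 call was lost without replicate 1, without replicate 3, without a count filter, with DESeq2 and with plate position, where the value was 0.12 (adjusted p = 0.636, edgeR), and the Phgdh call was lost without replicate 1 and without a count filter.

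The oligomycin response was lower in myotubes than in myoblasts for 5 members (13.2% of all genes), namely Aldh1l2 (-1.56 ± 0.09), Psph (-0.86 ± 0.12), Psat1, Phgdh and Shmt2 (the last 3 by 0.18 to 0.24), and higher for Shmt1 (0.62 ± 0.16) and Mthfd1 (0.26 ± 0.09), where 15.8% of all genes were higher. Of these 7 calls, 4 were made without replicate 1, 3 without replicate 2 and 4 without replicate 3. The Shmt1 call was lost without replicate 2 and with plate position, where the value was 0.33 (adjusted p = 0.192, edgeR), and the Mthfd1 call without any 1 of the replicates (0.15 without replicate 3) and without a count filter. For Mthfd2 (0.05 ± 0.08) and Mthfd1l (0.13 ± 0.13) no difference was called. In day 1 cells the response was lower than in myoblasts for 4 members (10.1% of all genes), Aldh1l2 (-1.48), Psph (-0.73), Psat1 (-0.31) and Shmt2 (-0.19), the last lost without replicate 1 and without a count filter. Phgdh was called lower there without replicate 2 (-0.23) and with DESeq2 (-0.17), and Shmt1 was called higher with a replicate block (0.39, adjusted p = 0.0392, edgeR).

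Under BAM15 and in hypoxia Mthfd1l had the largest rise of the 10 genes in myotubes. It was at 21.6, 22.9 and 25.7 CPM with DMSO, 70.5, 73.0 and 64.3 with BAM15 and 75.5, 72.1 and 83.1 in hypoxia, which are 2.96- and 3.29-fold and above every oligomycin sample (59.3, 52.4 and 57.2 CPM). In hypoxia its log2 fold change was 1.72 ± 0.09 (edgeR, adjusted p = 5.30e-13). Only Aldh1l2 also rose in hypoxia (0.40 ± 0.08, 2 members where 12.3% of all genes rose), and Shmt1 (-1.07 ± 0.21) and Psat1 (-0.19 ± 0.05) fell (9.78% of all genes). With BAM15, Mthfd1l, Aldh1l2 (1.09 ± 0.08) and Mthfd2 (0.35 ± 0.07) rose (13.2% of all genes) and Psat1 fell (-0.15 ± 0.05, 12.2% of all genes). The Psat1 call was lost without replicate 2 in both conditions and with BAM15 also without replicate 1, without a count filter and with only the groups compared. Without replicate 3, Mthfd1 was called lower in hypoxia (-0.29). Shmt2 held at 119, 118 and 119 CPM with BAM15 and 108, 119 and 109 in hypoxia, against 119, 115 and 109 with DMSO, and the groups overlapped.

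**Figure D5:**
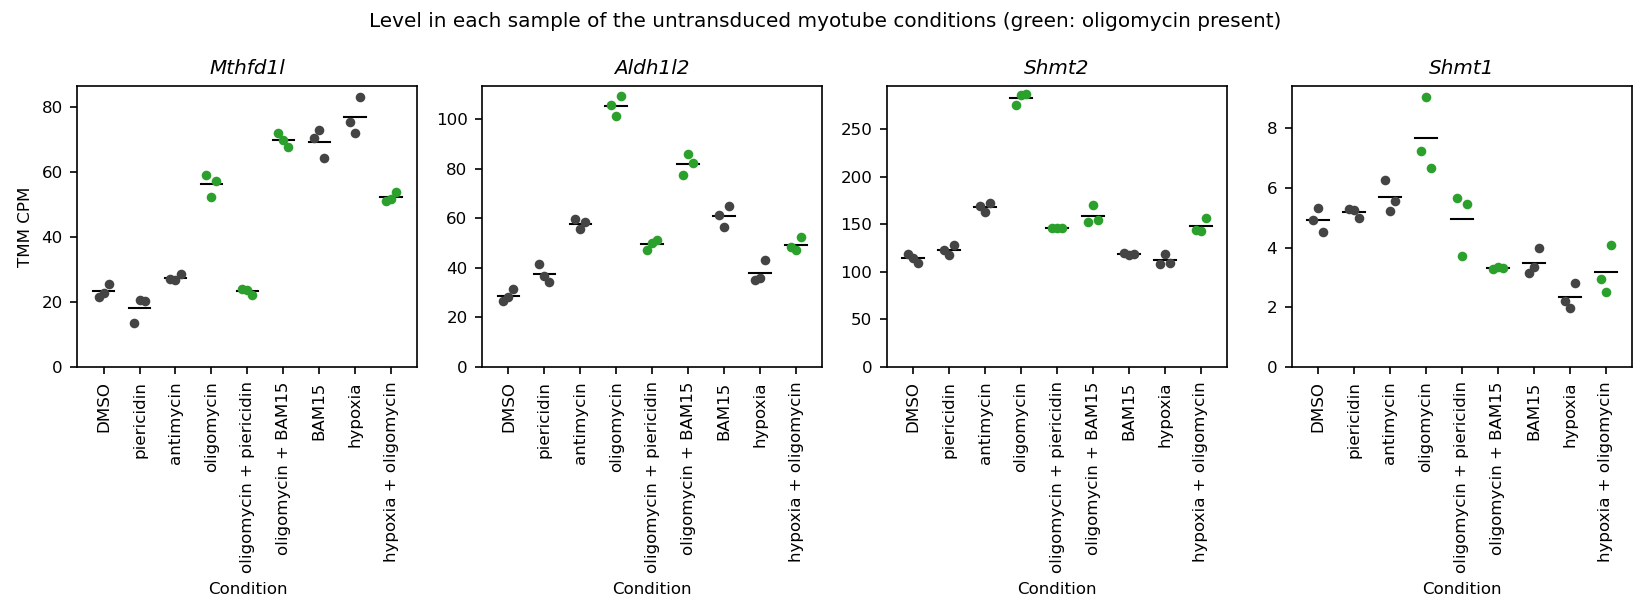
TMM CPM (linear axis from 0) of Mthfd1l, Aldh1l2, Shmt2 and Shmt1 in each sample of the 9 untransduced myotube conditions, green where oligomycin was present; points are samples (n = 3 each) and bars their means. Mthfd1l lies between 64.3 and 83.1 CPM with BAM15 alone or in hypoxia without oligomycin, and between 21.6 and 25.7 CPM with DMSO alone, whereas Shmt2 is highest with oligomycin alone.

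Shmt1 in hypoxia was at 2.21, 1.98 and 2.80 CPM, below every DMSO sample (4.93, 5.32 and 4.53), with 21 counts in its lowest sample. The proliferation markers moved with it: they summed to 23.2 to 28.7 CPM in hypoxia against 135 to 169 with DMSO, and all 5 were lower, with a median log2 fold change of -2.61. Their part in the fall of Shmt1 was not tested. With BAM15, where none of the 5 markers passed the test, Shmt1 was at 3.14, 3.34 and 3.98 CPM (-0.49 ± 0.20, adjusted p = 0.0801, edgeR). All 3 samples lay below every DMSO sample, and with plate position Shmt1 was called lower (-0.68, adjusted p = 0.0287, edgeR).

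In each combination with oligomycin most members were lower than with oligomycin alone. Piericidin with oligomycin gave 9 members lower than oligomycin (12.4% of all genes), with Aldh1l2 at 47.0, 49.9 and 51.3 CPM against 106, 101 and 109, and Mthfd1l at 24.1, 23.7 and 22.3 against 59.3, 52.4 and 57.2, back in the range of DMSO. Of these 9, Shmt1 was lost without replicate 1, without replicate 2 (-0.33, adjusted p = 0.421, edgeR), without a count filter, with plate position and with only the groups compared, and Mthfd1 without replicate 2. BAM15 with oligomycin gave 8 lower (14.1% of all genes), Shmt1 furthest (-1.21 ± 0.20), and Mthfd1l higher (0.31 ± 0.09, 12% of all genes; lost without replicate 2). Oligomycin in hypoxia gave 8 lower (16.5% of all genes), among them Psph (-1.24 ± 0.10), Mthfd2 (-1.12 ± 0.07) and Aldh1l2 (-1.09 ± 0.08), and Mthfd1l differed by -0.09 ± 0.09, which was not called. The Mthfd1 call there was lost without replicate 1 and without replicate 2. All 5 proliferation markers were lower in it too, with a median of -2.69 (28.2 to 29.4 CPM against 138 to 156), and their part was not tested. These 3 comparisons share the oligomycin samples. Within hypoxia, oligomycin still raised 5 members (2.04% of all genes), Mthfd2, Psat1, Shmt2, Phgdh and Aldh1l2, by 0.39 to 0.59, and lowered Mthfd1l (-0.54 ± 0.09, 2.22% of all genes). The Aldh1l2 call was lost without replicate 1, without replicate 2 and with only the groups compared, and Psph was called higher without replicate 2 (0.44).

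In transduced myotubes oligomycin raised 8 members in GFP cells (13.8% of all 12397 genes tested) and 9 in LbNOX cells (16.6%), with Aldh1l2 at 109 and 118 CPM in the 2 GFP samples and 107, 101 and 116 in the 3 LbNOX samples, against 25.0 and 20.8 and 26.6, 26.1 and 25.4 with DMSO. The ninth member called in LbNOX cells was Shmt1 (0.65 ± 0.23), lost without any 1 of the replicates, without a count filter and with the DESeq2 Wald test, and Mthfd1 in GFP cells was lost without replicate 2. The test of the difference between these responses called no member (edgeR; 0% of all genes were higher and 0% lower). At an unadjusted p under 0.05 there were 2 members and 525 genes, and DESeq2 called 0 members and 1 gene. The estimates ran from -0.43 ± 0.53 for Mthfd2l to 0.80 ± 0.37 for Shmt1, and those of Psph (-0.21 ± 0.11) and Aldh1l2 (-0.25 ± 0.12) were about 2 SE from 0, so that a smaller response of that size cannot be told from none. Between LbNOX and GFP cells with DMSO no member was called (edgeR; 0.0161% of all genes were higher and 0.00807% lower, 0 members had an unadjusted p under 0.05 and DESeq2 called 0). Piericidin raised 4 members in GFP myotubes (1.37% of all genes), Aldh1l2 (0.93 ± 0.10), Mthfd2, Shmt2 and Phgdh, of which 1 was called without replicate 1, 2 without replicate 2 and none when these groups alone were modelled. Each GFP arm without replicate 1 or 2 is 1 sample, assumed to vary like the other groups. In LbNOX myotubes it raised Mthfd2 (0.44 ± 0.07), Aldh1l2 and Phgdh (3.24% of all genes) and lowered Mthfd1l (-0.74 ± 0.13, 3.54% of all genes). Of these 4 calls, 2 were made without replicate 1, 1 without replicate 2 and 2 without replicate 3, and both Aldh1l2 and Phgdh were lost without any 1 of these replicates and without a count filter, and Aldh1l2 also with the DESeq2 Wald test, with a replicate block, with plate position and with only the groups compared.

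A list of 47 other genes of serine, glycine and folate metabolism moved in both directions. In control myoblasts 34 of the 47 were tested. With piericidin 14 rose and 9 fell (30.9% and 30.8% of all genes), with antimycin 13 and 15 (32.1% and 31.1%) and with oligomycin 15 and 7 (24.5% and 26.3%), with medians of 0.06, -0.16 and 0.11 on the log2 scale. The largest rises were those of Cth, which makes cysteine from cystathionine (4.50 ± 0.10, 3.07 ± 0.10 and 4.35 ± 0.10), and of the glycine transporter Slc6a9 (3.22, 2.64 and 2.93). The third largest was the neutral amino acid carrier Slc1a4 with piericidin (1.69), Mtrr, which reactivates methionine synthase, with antimycin (1.43), and the glutamine and serine carrier Slc1a5 with oligomycin (1.89, not called with antimycin). The largest falls were those of Mthfsl (-1.99), Cbs (-1.77), the enzyme that makes cystathionine, and Mthfs (-1.24) with piericidin, of Mat2a (-1.71), which makes S-adenosylmethionine, Mthfsl and Cbs with antimycin, and of Mthfsl (-1.24) and Cbs (-1.11) with oligomycin.

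By group, the 6 genes that use the carbon for thymidylate and purines had 2 higher and 2 lower with piericidin, 2 and 4 with antimycin and 2 and 2 with oligomycin, with thymidylate synthase Tyms at -0.74, -0.99 and -0.56. In myotubes with oligomycin 5 of the same 6 rose, Tyms at -0.03 not passing the test, and of the whole list 16 of 35 tested rose and 3 fell, where 16.9% of all genes rose and 16.4% fell. The largest were again Cth (3.92), Slc6a9 (2.40) and Slc1a5 (1.22), and those that fell included Gldc (-1.52), the decarboxylase of the glycine cleavage system, and the folate carrier Slc46a1 (-0.55). With chloramphenicol 5 of 34 rose, Cth (3.75) and Slc6a9 (2.38) most, and 1 fell, where 4.83% of all genes rose and 3.62% fell.

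Across the 35 condition means of log2 CPM, the members fell into several patterns. The genes most like Psph were Shmt2 (Pearson r = 0.99), Adh7 (0.99) and Tars (0.98), those most like Shmt2 were Psph (0.99), Adh7 (0.98) and Psat1 (0.96), and those most like Psat1 were Shmt2 (0.96), Psph (0.95) and Phgdh (0.95). Mthfd2 was most like Asns (0.97), Scpep1 (0.97) and Gars (0.96), and Aldh1l2 most like Eif3c (0.96), Lars (0.95) and Sars (0.95). Shmt1 was most like Cdt1 (0.99), Cdca7 (0.99) and Trip13 (0.99), and Mthfd1 most like Cad, Ran and Nup43 (0.99 each). Phgdh was most like Cers2, Rcc2 and Rack1 (0.98 each), Mthfd1l most like Ruvbl2 (0.93), Rnd1 (0.92) and Slc19a1 (0.92), and Mthfd2l most like Fbxo4 (0.72), Det1 (0.71) and Zc3h4 (0.70). These are descriptions over conditions that share cell states and vehicles, so the difference between myoblasts and myotubes weighs on all of them.

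Over all conditions the mean level of Shmt1 spanned 27.9-fold, the widest range of the set, from 2.33 CPM in hypoxic myotubes to 64.9 CPM in LbNOX myoblasts with antimycin. Aldh1l2 spanned 15.2-fold, from 22.9 CPM in GFP myotubes with DMSO to 349 CPM in control myoblasts with oligomycin, and Psph 13.7-fold. Phgdh, Psat1, Psph, Shmt2, Mthfd1 and Mthfd1l were all highest in control myoblasts with piericidin, and Mthfd2 in control myoblasts with antimycin at 578 CPM. The spread between replicates of a condition (median coefficient of variation) was 2.34% for Phgdh, 8.04% for Shmt1 and 16.8% for Mthfd2l.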

How the data were processed

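RNA-seq of 96 C2C12 samples was taken as deposited: a table of estimated counts per gene, whole numbers, which the authors made with kallisto 0.44 against the mouse transcriptome of GRCm38 (Ensembl) with 4 transgenes added, and summed per gene with tximport, from Smart-seq2 libraries (paired 37-base reads, counted without strand). Groups came from the sample labels. A gene was tested where all replicates of at least 1 condition reached 16 counts, with edgeR 4.0.16 (R 4.3.3, limma 3.58.1; TMM, quasi-likelihood F test, 1 mean per condition), in 6 fits of 37 myoblast, 8 chloramphenicol, 27 untransduced myotube, 15 transduced myotube, 9 day 1 and 33 state-comparison samples. P-values were Benjamini-Hochberg adjusted over all genes of a comparison, and called means below 0.05. SE was the log2 fold change over the root of F. The code was tested on simulated counts. Counts of 6458295 to 15366745 per sample set the precision, and Mthfd2l, with 13 to 57 counts, was the least precise member. No 2 replicates of a condition held identical values.

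The 10 genes, the 47 pathway genes, the ISR reference genes and the marker lists were chosen with earlier results of these data known. Named genes were the members, the 3 pathway genes with the largest called change in each direction, and the 3 genes most like each member over condition means of log2 CPM (pseudocount 0.5). One gene that this rule names is not reported here. Same-numbered replicates did not deviate together (mean r from -0.04 to 0.03 in the 6 fits, lowest pair -0.31). Alternatives were DESeq2 1.42.0 size factors and Wald test, no count filter, a replicate block, plate position as a covariate, only the groups compared, and leaving out each replicate. Plate position was entered only as outer or inner well, not as row or column. Promoter windows were read with Python 3.11.15, and figures were drawn with matplotlib 3.10.9.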

Additional observations from a re-analysis of the deposited data

Results flagged for a closer look

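Tests of a difference between 2 responses flagged 12 comparisons, given here as the number of the 10 genes called, the largest called member on the log2 scale (edgeR) and the share of all genes called in either direction. The 5 of 10 for LbNOX with antimycin and the 4 of 10 for mitoLbNOX with antimycin are near the share of all genes and are no result about the members. LbNOX minus luciferase gave 8 members with piericidin (Aldh1l2 -2.18, 44.3% of all genes called), 5 with antimycin (Mthfd2 -1.17, 51.5% of all genes called) and 3 with oligomycin (Aldh1l2 -0.55, 7.98% of all genes called), the last 1 or 2 when a replicate was left out. MitoLbNOX minus luciferase gave 8 with piericidin (Aldh1l2 -1.77, 42.8% of all genes called) and 4 with antimycin (Shmt1 0.40, 31.7% of all genes called), the last 1 to 3 when a replicate was left out, with Shmt1 lost without replicate 1, without replicate 3 and without a count filter. NDI1 minus luciferase gave 8 with piericidin (Aldh1l2 -3.31, 42.7% of all genes called), and LbNOX minus luciferase with chloramphenicol gave 4 (Psph -0.94, 0.53% of all genes called), the last 2 with a replicate block, where Shmt2 and Aldh1l2 were lost. Myotubes minus myoblasts gave 8 with piericidin (Aldh1l2 -3.03, 46.5% of all genes called), 8 with antimycin (Mthfd2 -1.57, 47.9% of all genes called) and 7 with oligomycin (Aldh1l2 -1.56, 29% of all genes called), the last 3 or 4 when a replicate was left out. Day 1 cells minus myoblasts gave 8 with piericidin (Aldh1l2 -2.95, 46.6% of all genes called) and 4 with oligomycin (Aldh1l2 -1.48, 24.9% of all genes called).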

How the results depend on the processing

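No member reversed its direction while called under any alternative. With a replicate block, 484 of 490 member values stayed as they were, called or not called, and 4 lost their call. The 2 that gained one were Psat1 for LbNOX against luciferase in DMSO myoblasts and Shmt1 for the oligomycin difference of day 1 cells from myoblasts. The block moved the count of called members from 1 to 2 for LbNOX against luciferase in DMSO myoblasts and from 4 to 2 for the LbNOX difference in chloramphenicol response (Shmt2 and Aldh1l2 lost, edgeR adjusted p = 0.0555 and 0.0931), ended the call of Aldh1l2 for piericidin in LbNOX myotubes (0.0615) and of Mthfd1l for piericidin in untransduced myotubes (0.0528), and moved no other count by over 1.5 times. LbNOX against luciferase in DMSO myoblasts gave 0 members without a count filter, with the DESeq2 Wald test and with only the groups compared. The LbNOX difference in oligomycin response (3 members) gave 1 without a filter, 1 with only the groups compared and 5 with plate position. Without a filter the mitoLbNOX difference in antimycin response gave 2 (of 4) and piericidin in LbNOX myotubes 2 (of 4). With only the groups compared, mitoLbNOX against luciferase gave 1 (of 3) and piericidin in GFP myotubes 0 (of 4). The cause was not tested.

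Leaving out each replicate in turn gave 2 to 5 members for piericidin against oligomycin (6 with all samples), 0 to 0 for LbNOX against luciferase (1), 3 to 5 for NDI1 against luciferase (6), 1 to 2 for the LbNOX difference with oligomycin (3), 1 to 3 for the mitoLbNOX difference with antimycin (4), 0 to 2 for piericidin in untransduced myotubes (3), 1 to 3 in GFP myotubes (4), 1 to 2 in LbNOX myotubes (4) and 0 to 1 in day 1 cells (2), and 3 to 4 for the oligomycin difference of myotubes from myoblasts (7). Without replicate 1 or without replicate 2, NDI1 and GFP arms are 1 sample, assumed to vary like the other groups. Chloramphenicol without a replicate and plate position in day 1 cells could not be fitted. Depth limits Mthfd2l most, and Shmt1 in myotubes.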
